A study of Mus musculus with 49 samples.

Results

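Adipocyte genes are described here across the skin and the colon of DITRA-like mice. The 10 genes, matched by Entrez ID in both count tables among 24475 genes, were Adipoq, Lep, Retn, Cfd, Lpl, Fabp4, Plin1, Cidec, Car3 and Pparg, and all 10 passed the filter on low counts in each tissue. They were chosen as markers of fat in the sampled tissue, by a rule that uses no measured value, though earlier results of these data were known.

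The study modelled DITRA, a human inflammatory disease in which the natural brake on IL-36 signalling is missing, in mice whose strain is labelled 75% C57BL/6NTac and 25% 129S6/SvEvTac; every library, controls included, carries the DITRA model label, and the labels used here name no allele, age or sex. Skin was sampled after imiquimod (IMQ, a compound that inflames mouse skin) with an antibody to human IL-36R (n = 7), with an antibody to mouse IL-12p40 (n = 7) or with PBS (n = 6), and after water with PBS (n = 3). Colon was sampled after dextran sulfate sodium (DSS, a compound that injures the colon lining) with anti-IL-36R (n = 8), with anti-IL-12p40 (n = 7) or with PBS (n = 6), and after water with PBS (n = 5). The series contrasts inflamed with uninflamed tissue, and each antibody with PBS in inflamed tissue. Each library is bulk RNA of a piece of tissue, so fewer fat cells and less RNA per fat cell cannot be told apart.

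White fat cells store triglyceride in a large lipid droplet and release hormones. In skin they form a layer under the dermis that expands and shrinks with the hair cycle and with injury; in the gut they lie mostly outside the muscle wall, in the mesentery. Pparg encodes the nuclear receptor that drives fat cell differentiation, and in mice it is also made by sebocytes, macrophages and colon epithelium, whereas Adipoq, Lep, Plin1 and Retn are largely restricted to fat cells.

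Promoters of 4 members are printed to show the start regions of genes that varied together among colon libraries (Adipoq, Lep, Plin1) and of the gene that did not (Pparg). They are RefSeq sequences on GRCm38.p6, from 250 bases before the start of transcription to 50 after it, on the strand of the gene. Capitals mark TTGCNNAA, a C/EBP element, or AGGTCA, a nuclear receptor element, on either strand. RefSeq gave Pparg 3 windows, of which the most upstream and the most downstream are shown; the downstream start, known as that of the Pparg2 form, is used mainly in fat cells, and the upstream start more widely. Adipoq lies on the plus strand at chr16:23146286-23146585, Lep on the plus strand at chr6:29059971-29060270, and Plin1 on the minus strand at chr7:79732727-79733026. Pparg is on the plus strand, with windows at chr6:115360894-115361193 and chr6:115421816-115422115.
Adipoq: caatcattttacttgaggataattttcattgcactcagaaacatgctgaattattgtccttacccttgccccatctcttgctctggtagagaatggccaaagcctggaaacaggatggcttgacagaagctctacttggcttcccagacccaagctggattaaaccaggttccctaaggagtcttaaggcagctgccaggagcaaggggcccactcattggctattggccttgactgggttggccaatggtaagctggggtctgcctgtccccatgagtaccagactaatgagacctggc
Lep: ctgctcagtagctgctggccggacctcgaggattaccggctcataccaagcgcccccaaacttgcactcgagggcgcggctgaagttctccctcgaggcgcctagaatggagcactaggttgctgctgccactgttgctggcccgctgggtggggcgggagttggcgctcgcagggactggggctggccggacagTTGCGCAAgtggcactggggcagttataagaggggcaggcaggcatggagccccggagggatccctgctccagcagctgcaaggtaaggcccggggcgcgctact
Plin1: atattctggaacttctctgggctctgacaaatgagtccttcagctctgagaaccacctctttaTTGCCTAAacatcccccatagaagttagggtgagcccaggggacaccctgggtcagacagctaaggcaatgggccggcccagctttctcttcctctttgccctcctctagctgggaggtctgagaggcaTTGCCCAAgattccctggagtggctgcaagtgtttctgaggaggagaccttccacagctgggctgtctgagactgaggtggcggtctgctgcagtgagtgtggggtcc
Pparg upstream start: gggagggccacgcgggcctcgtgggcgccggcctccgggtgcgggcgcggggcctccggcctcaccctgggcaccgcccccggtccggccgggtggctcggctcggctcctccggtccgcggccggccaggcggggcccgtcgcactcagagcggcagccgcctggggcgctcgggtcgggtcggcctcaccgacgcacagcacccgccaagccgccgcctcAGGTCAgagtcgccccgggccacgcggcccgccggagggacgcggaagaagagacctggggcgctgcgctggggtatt
Pparg downstream start: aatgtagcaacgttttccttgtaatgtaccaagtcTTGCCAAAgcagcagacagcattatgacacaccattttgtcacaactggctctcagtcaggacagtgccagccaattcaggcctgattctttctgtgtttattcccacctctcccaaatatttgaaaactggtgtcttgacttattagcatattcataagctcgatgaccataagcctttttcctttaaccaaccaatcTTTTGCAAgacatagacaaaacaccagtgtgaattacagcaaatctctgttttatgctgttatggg

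The C/EBP letters, chosen after the windows were read, stood in 4 of the 10 windows that RefSeq gave for 7 members (Lep, Cidec, Plin1 and the downstream Pparg start), against 10.8% of 32851 mouse windows of the same length. The match in Lep reads the same on both strands. AGGTCA was found in 2 windows, both at upstream Pparg starts, against 16.3% of all windows, and the DR1 element, AGGTCA given again after 1 base, to which PPARG binds with its partner RXR, was in none of the 10, against 0.0396% of all windows. Counts per gene add up all starts, so the tables do not show which Pparg start was used. The promoters of Fabp4, Car3 and Lpl are not shown.

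Library totals, in mega-counts (M), ran from 14.7 to 19.7 M expected counts in skin and from 15.1 to 18.7 M in colon. Values below are CPM, expected counts scaled to library size with TMM factors, and differences between groups are log2 fold changes with their standard error (SE) from edgeR, called at an adjusted p below 0.05 over all genes of the tissue. Marker genes separated the tissues as labelled: 8 epidermal markers summed to between 29917 and 69861 CPM in skin. In colon they summed to 1.15 to 24.4 CPM, except in DSS with PBS replicate 6, which held 2617 CPM of them. Colonocyte markers summed to between 595 and 6954 CPM in colon and to at most 12.7 CPM in skin.

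The 10 genes were present in every skin library, and in colon most were far lower. Adiponectin (Adipoq, a hormone of fat cells) had a median of 42.3 CPM over 23 skin libraries and 2.21 CPM over 26 colon libraries. Per kilobase of exon, complement factor D (Cfd, or adipsin) was the highest member in each of the 8 groups, with means of 234 to 289 CPM per kb in skin and 14.3 to 31.2 CPM per kb in colon. Carbonic anhydrase 3 (Car3, abundant in mouse fat and muscle) was next in every skin group, at 88.1 to 176 CPM per kb, and leptin (Lep) was the lowest member per kilobase in every group. Pparg held a different place in the tissues: it ranked 8 or 9 of the 10 per kilobase in skin, at 4.55 to 7.54 CPM per kb, and 2 or 3 in colon, at 10.8 to 13.1 CPM per kb.

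**Figure D1:**
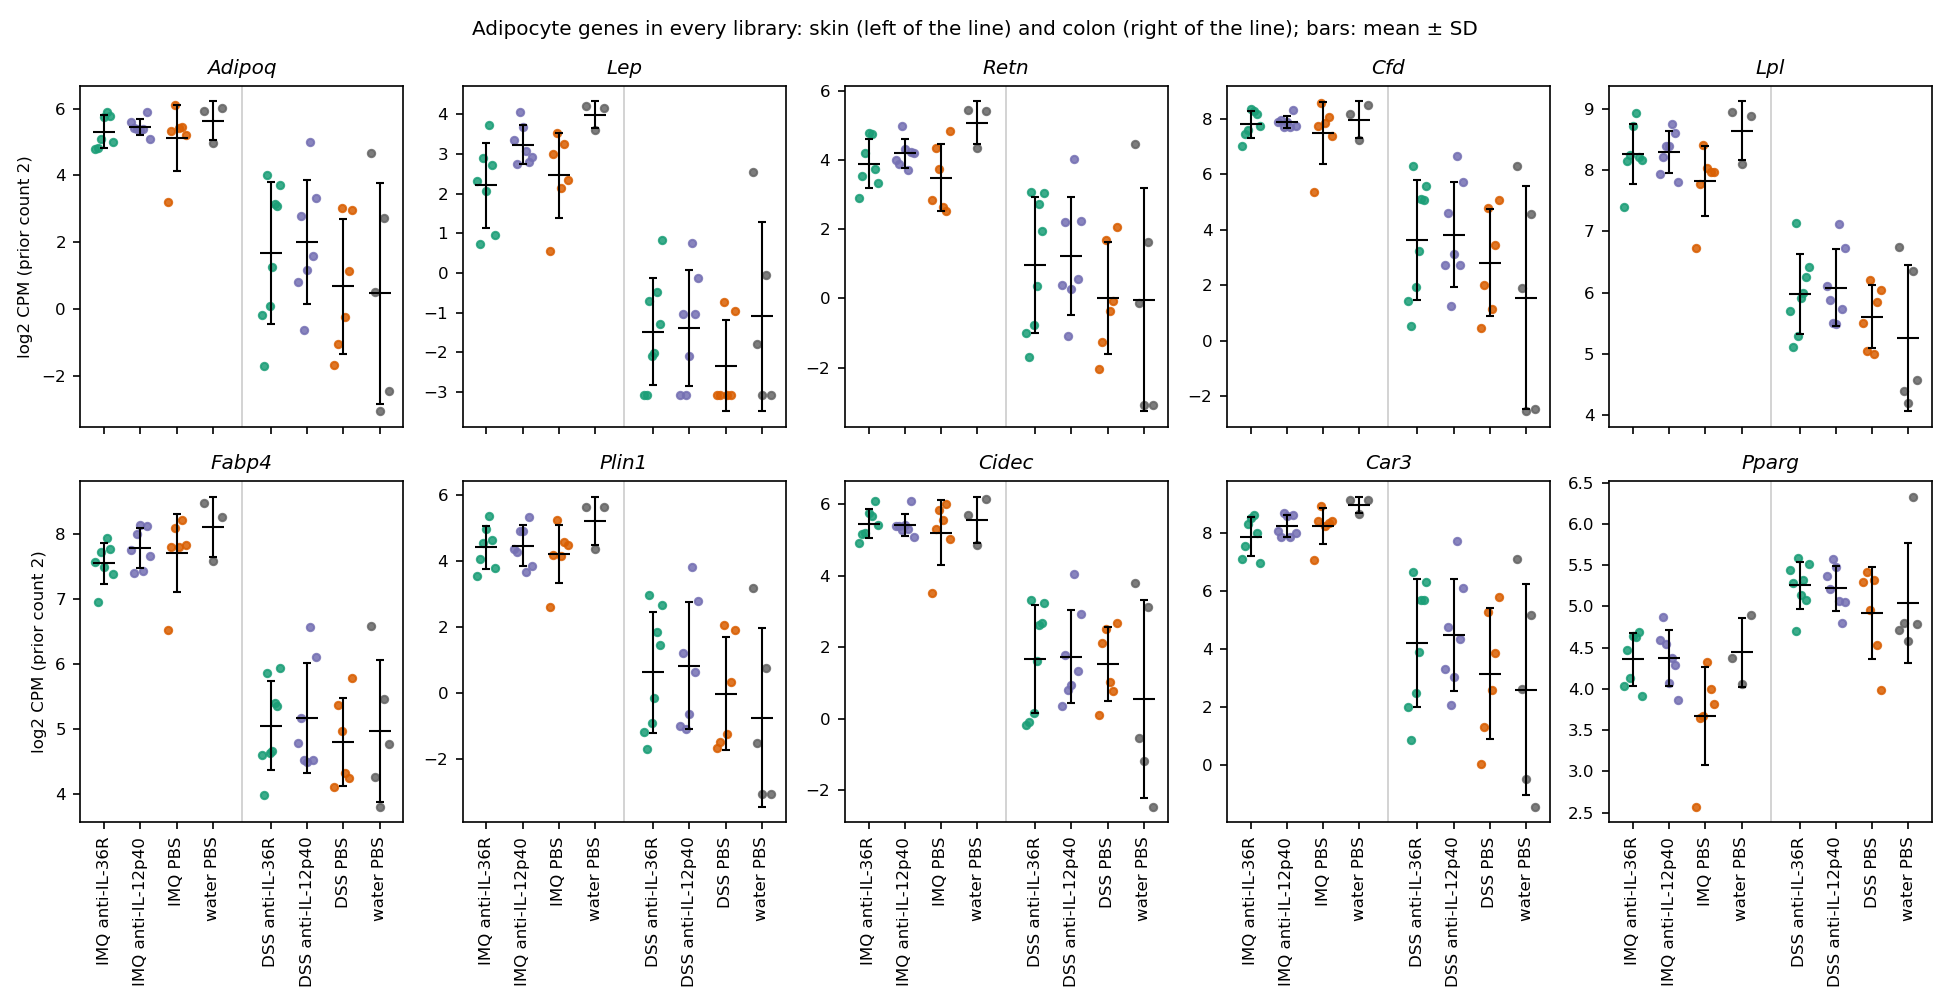
Level of each adipocyte gene in every library, as log2 CPM with a prior count of 2 (vertical axis), by group (horizontal axis); points are libraries, bars the group mean ± SD. Of the 10 genes, Pparg alone has a higher median in colon than in skin (19.4 CPM in skin, 35.99 CPM in colon), and the other 9 spread more widely among colon libraries than among skin libraries.

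After imiquimod, 3 of the 10 genes fell in skin: resistin (Retn, a fat cell hormone in mice), lipoprotein lipase (Lpl, which frees fatty acids from blood lipoproteins) and Pparg. Of all 15345 genes tested, 33.0% were called in this comparison, so 3 of 10 is close to the background share. All 10 values were negative, with a median log2 fold change of -0.70 against -0.03 over all genes. These 10 values are not independent, because the genes vary together within skin groups (median r of the pairs 0.74). An unadjusted p below 0.05 was reached by 5 of them, and by 6857 of all 15345 genes.

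Among the hormones, Retn stood at 5.61 to 28.4 CPM with IMQ and PBS (median 10.1), against 42.9, 20.3 and 42.7 CPM in the 3 water skins. In the IMQ group, replicates 1, 4 and 5 stood at 6.99, 6.08 and 5.61 CPM and replicates 2, 3 and 6 at 20.3, 13.2 and 28.4 CPM, and the group overlapped the water group through its highest library alone. The mean was 13.4 ± 9.25 CPM in IMQ skin and 35.3 ± 12.98 CPM in water skin (SD, n = 6 and 3), a log2 fold change of -1.39 ± 0.446 (SE) with an adjusted p of 0.0212. The call was lost without water replicate 1 or 3, with the compared groups alone and with IMQ replicates 4 to 6 alone. The adjusted p ranged from 0.00488 to 0.0939 over the alternatives tried.

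Lep, the hormone that reports fat stores to the brain, had no overlap between the IMQ and water groups. The share of all genes without such overlap was not counted, so the separation is not shown to be unusual. Lep ran from 1.36 to 11.3 CPM with IMQ and PBS (median 6.40), against 18.5, 12.1 and 17.6 CPM with water. Its log2 fold change was -1.30 ± 0.504 (SE), and its adjusted p of 0.0516 was just outside the threshold; with DESeq2 it was called. Relative to Adipoq in the same library, Lep was also lower, at 0.150, 0.195, 0.162, 0.100, 0.212 and 0.136 in the 6 IMQ libraries against 0.302, 0.385 and 0.272 in the water libraries. The difference of the log2 ratio was -1.03, with an exact 2-sided permutation p of 0.0238, the smallest that 6 against 3 allows, and an adjusted p of 0.362 over the 27 ratios compared in skin; the ratios were chosen after the levels were seen, and none of the 27 passed adjustment.

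Adipoq itself showed no such separation. It ran from 9.02 to 69.9 CPM with IMQ and PBS (median 41.3), against 61.1, 31.4 and 64.6 CPM with water, and its log2 fold change was -0.37 ± 0.367 (SE, adjusted p = 0.445). IMQ with PBS also held the library with the most Adipoq in skin, replicate 3. Cfd, the remaining secreted member, had 216 ± 111 CPM in IMQ skin and 266 ± 108 CPM in water skin (SD), a log2 fold change of -0.30 with an adjusted p of 0.574.

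Of the genes that bring in and carry fatty acids, Lpl had 106 to 341 CPM with IMQ and PBS (median 250.9), against 495, 273 and 471 CPM with water. Of the 6 IMQ libraries, 5 lay below all 3 water libraries, and the log2 fold change was -0.79 ± 0.292 (SE, adjusted p = 0.0405). Every library held a fractional expected count for Lpl, so the authors' estimation shared some of its reads with other genes. Fabp4, a fatty acid carrier of fat cells that capillary endothelium and macrophages also make, had 222 ± 70.7 CPM in IMQ skin and 285 ± 84.4 CPM in water skin (SD), with an adjusted p of 0.291.

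The droplet genes were not called. Plin1, which coats the droplet and gates lipolysis, had 20.7 ± 10.2 CPM in IMQ skin and 39.6 ± 16.8 CPM in water skin (SD), with a log2 fold change of -0.93 ± 0.433 (SE) and an adjusted p of 0.0993. Cidec, which promotes droplet fusion, differed least, with a log2 fold change of -0.26 (adjusted p = 0.584). Car3 had 318 ± 111 CPM in IMQ skin and 504 ± 93.1 CPM in water skin (SD, adjusted p = 0.133).

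Pparg ran from 5.83 to 19.9 CPM with IMQ and PBS (median 13.3), against 20.6, 16.6 and 29.6 CPM with water. The groups overlapped through 1 IMQ library above the lowest water skin. The log2 fold change was -0.73 ± 0.264 (SE, adjusted p = 0.0387), and it was not called without IMQ replicate 1, 2 or 3 or without water replicate 1 or 3.

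IMQ with PBS replicate 1 had the lowest level of its group for 9 of the 10 genes, all but Retn, and without it Retn was the 1 gene called. Without either water replicate 1 or water replicate 3 no member was called. Markers of other cell types moved with IMQ as well. Markers of sebocytes, the lipid-filled cells of the sebaceous gland, summed to 259 to 512 CPM with IMQ and PBS, against 673 to 1460 CPM with water, and 10 of 11 fell, Pparg among them. Skeletal muscle markers summed to 1361 to 3560 CPM against 3728 to 8174 CPM, with 4 of 16 lower, and fibroblast and fat cell precursor markers to 4624 to 10972 CPM against 14083 to 23766 CPM, with 7 of 13 lower and 3 higher. Most of the latter sum was collagen: Col3a1, Col1a2 and Col1a1 averaged 3620, 1977 and 1892 CPM over skin libraries. Pdgfra averaged 134 CPM, Pi16 115, Dpp4 48.5 and Dlk1 0.286, so the sum does not measure precursors. Macrophage markers summed to 838 to 2261 CPM with IMQ and PBS, against 870 to 1648 CPM with water, with 5 of 12 higher, and endothelial markers to 360.5 to 494 CPM against 243 to 347 CPM, with 6 of 12 higher. The share called was 90.9% for sebocyte, 25% for skeletal muscle, 76.9% for fibroblast and precursor, 41.7% for macrophage and 50% for endothelial markers. Over all genes it was 33.0%, so the share of skeletal muscle markers lay below the background. No marker of these 5 lists was at 0 throughout either group. Their part in the members' values was not tested.

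**Figure D2:**
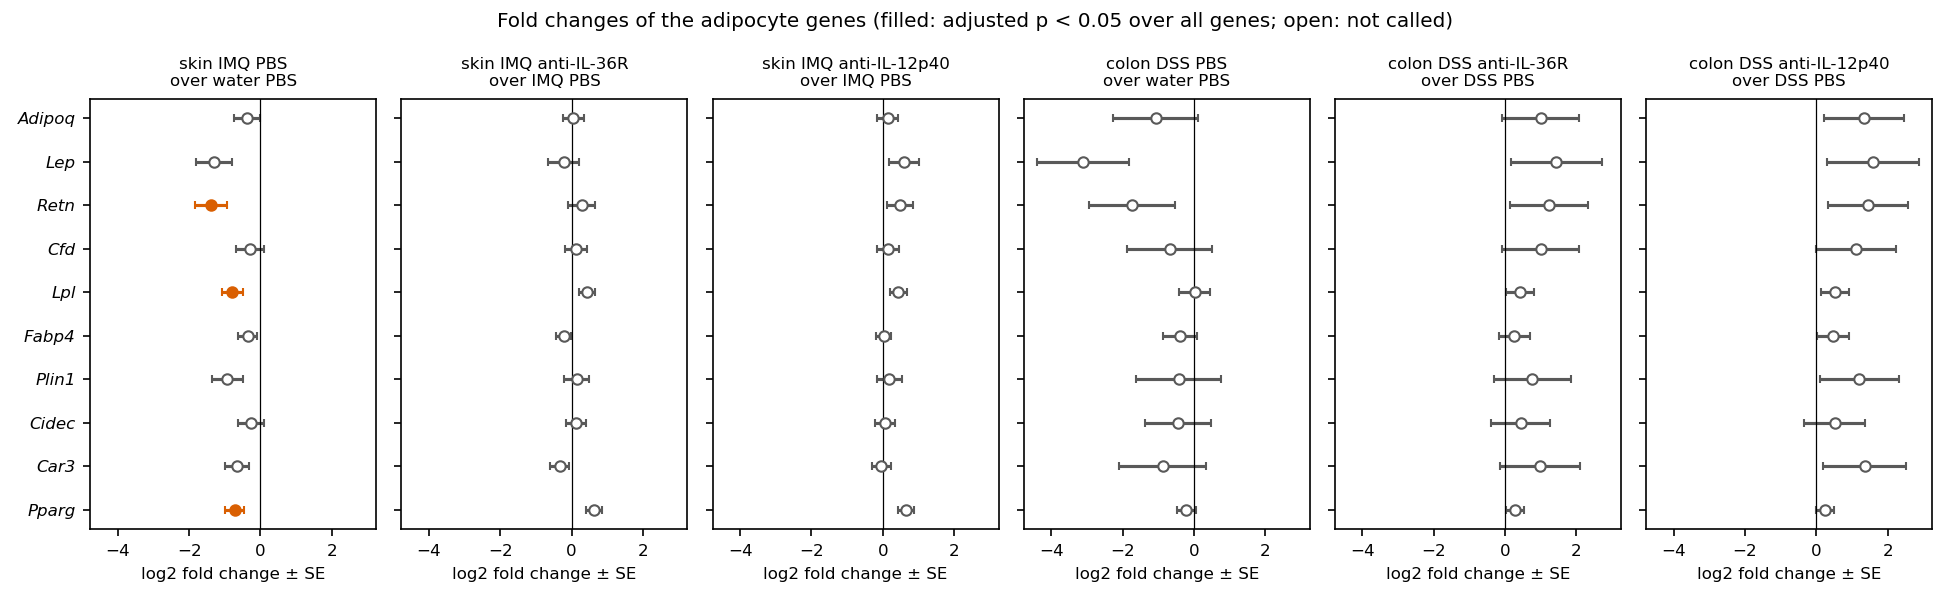
Log2 fold change ± SE (horizontal axis) of each adipocyte gene (vertical axis) in the 6 comparisons, 1 panel each; filled orange points are called at an adjusted p below 0.05 over all genes and open points are not. The 3 filled points, Retn, Lpl and Pparg, are in the panel of IMQ with PBS over water in skin, and the error bars are widest in colon.

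Neither antibody changed a member in IMQ skin by the threshold. None of the 10 was called with anti-IL-36R, where 4.21% of all genes were called, nor with anti-IL-12p40, where 8.80% were; DESeq2 called 1, Pparg, with anti-IL-12p40, and limma-voom called Pparg with either antibody. At an unadjusted p below 0.05 there was 1 member in each comparison, Pparg. Of all 15345 genes, 3284 reached that level with anti-IL-36R and 3885 with anti-IL-12p40. Both comparisons share the 6 IMQ libraries with PBS.

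Pparg had 14.9 to 25.6 CPM with anti-IL-36R (median 22.1) and 14.5 to 29.1 CPM with anti-IL-12p40 (median 20.7), against 5.83 to 19.9 CPM with PBS (median 13.3). Its log2 fold change was 0.63 ± 0.215 (SE, adjusted p = 0.0961) with anti-IL-36R and 0.65 ± 0.215 (SE, adjusted p = 0.0602) with anti-IL-12p40. Adipoq, in contrast, averaged 41.6 ± 14.2 CPM with anti-IL-36R and 44.3 ± 7.83 CPM with anti-IL-12p40, against 40.3 ± 19.4 CPM with PBS (SD). Lep averaged 5.62 ± 3.95 CPM with anti-IL-36R and 9.81 ± 3.65 CPM with anti-IL-12p40, against 6.51 ± 3.65 CPM with PBS (SD), and its groups overlapped. Across the 10 genes the log2 fold changes lay between -0.33 and 0.63 with anti-IL-36R and between -0.04 and 0.65 with anti-IL-12p40.

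Sebocyte markers moved beside Pparg here too: they summed to 532 to 1299 CPM with anti-IL-36R and 530 to 1294 CPM with anti-IL-12p40, against 259 to 512 CPM with PBS, and 9 of 11 rose with each antibody. Within groups, Pparg followed the sum of the other sebocyte markers over the 23 skin libraries (Pearson r 0.75, permutation p = 0.00011; Spearman rho 0.82, permutation p = 1e-05, the smallest 100000 shuffles can give). The r was 0.68 without the 2 libraries farthest from the median. Its r with Adipoq in the same libraries was 0.74, so the relation to sebocyte markers and that to Adipoq were of like size in skin.

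**Figure D3:**
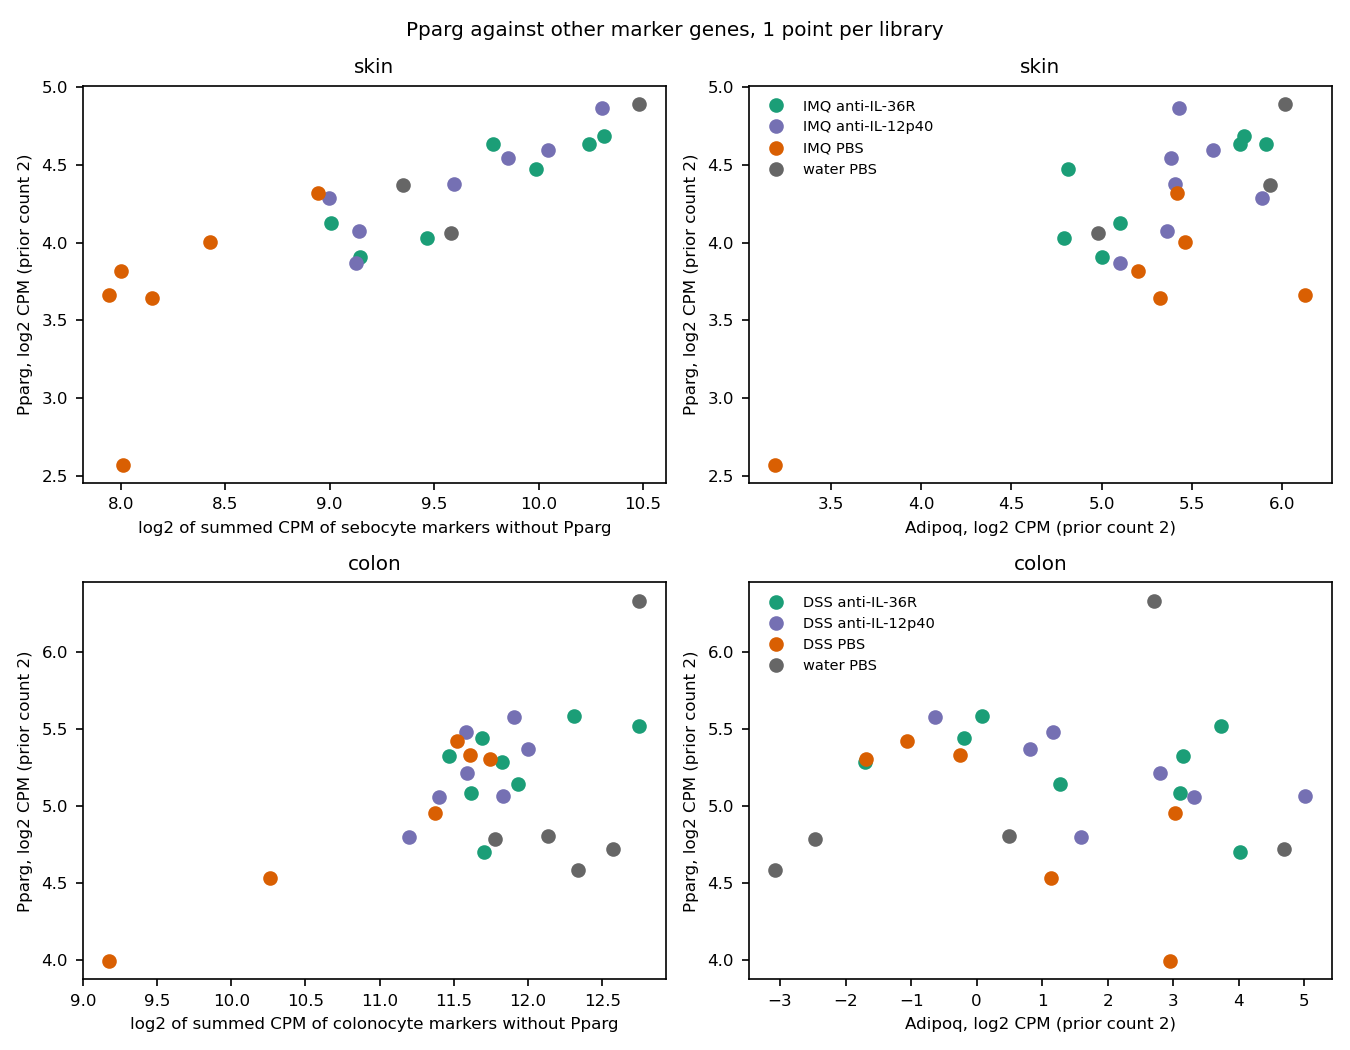
Pparg (vertical axes, log2 CPM) against the summed level of sebocyte markers in skin or colonocyte markers in colon without Pparg (left, log2 of summed CPM) and against Adipoq (right, log2 CPM); each point is 1 library, coloured by group. In skin Pparg is highest where sebocyte markers are high, and in colon it follows colonocyte markers (r 0.71 within groups) but not Adipoq (r -0.18).

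In colon the adipocyte genes varied widely between libraries of the same group, and none of the 10 was called in any comparison. Over all genes, 32.2% were called for DSS with PBS over water, 6.60% for anti-IL-36R and 1.15% for anti-IL-12p40 over DSS with PBS. By DESeq2 the count was also 0 in all 3 comparisons. At an unadjusted p below 0.05 there was 1 member, Lep, for DSS over water and none with either antibody. Of all 15731 genes, 6674 reached that level for DSS over water, 3656 with anti-IL-36R and 1897 with anti-IL-12p40.

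Adipoq ran from 0.189 to 16.1 CPM in DSS colon with anti-IL-36R (median 5.36), from 0.523 to 32.3 CPM with anti-IL-12p40 (median 2.90) and from 0.191 to 8.05 CPM with PBS (median 1.39). With water it stood at 25.7, 1.30, 0, 6.43 and 0.0624 CPM. A count of 0 allows up to 0.160 CPM in that library (3 counts, counting error only). Every group thus held libraries with nearly no Adipoq beside libraries with several CPM, and the groups overlapped throughout.

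Lep was close to the limit of detection in colon, with a count of 0 in 10 of 26 libraries. It ran from 0 to 0.481 CPM with DSS and PBS, with 4 of 6 libraries at 0, against 5.74, 0.169, 0, 0.848 and 0 CPM with water. Its log2 fold change was -3.12 ± 1.29 (SE, adjusted p = 0.066) and, without water replicate 1, -0.66 (adjusted p = 0.760). Retn had 0.127 to 4.09 CPM with DSS and PBS (median 0.743), against 21.8, 0.788, 0, 2.97 and 0 CPM with water (adjusted p = 0.276). Car3 ran from 0.891 to 54.9 CPM with DSS and PBS, against 0.250 to 138 CPM with water, and Cfd from 1.27 to 34.0 CPM against 0.0534 to 78.9 CPM.

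Water replicate 1 had the most Adipoq of its group, and without it 8 of the 10 fold changes of DSS over water were positive, where 9 of 10 were negative with it. The SE of the members' log2 fold changes reached 1.29 in this comparison, while the median SE over all genes was 0.181. With anti-IL-36R over DSS with PBS all 10 values were positive (0.25 to 1.44, adjusted p of at least 0.514), and likewise with anti-IL-12p40 (0.24 to 1.59, adjusted p of at least 0.638). These 10 values are not independent, because the genes vary together, and both comparisons share the 6 DSS libraries with PBS. Leaving out DSS with PBS replicate 6, the library with epidermal markers, kept all 10 positive with each antibody, and 0 members were called without it in each of the 3 colon comparisons. Over all genes, leaving it out lowered the number called to 439 against 1039 with anti-IL-36R and to 34 against 181 with anti-IL-12p40.

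Lpl and Fabp4 kept a floor in colon that the other fat genes lacked. In the water libraries without Adipoq or nearly so, replicates 3 and 5, Lpl still had 18.3 and 23.7 CPM and Fabp4 13.8 and 26.96 CPM, while Plin1 and Retn were at 0 in both. Pparg had 23.8 and 27.5 CPM in those 2 libraries, and 26.2, 27.8 and 80.4 CPM in water replicates 1, 2 and 4, where Adipoq stood at 25.7, 1.30 and 6.43 CPM.

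The response of the members was not shown to differ between tissues. In a fit of all 8 groups, the effect of IMQ in skin minus that of DSS in colon was called for none of the 10 genes (lowest adjusted p 0.338). Of all 16818 genes, 22.3% were called. An unadjusted p below 0.05 was reached by none of the 10, and by 5936 of all genes. DESeq2 called 0 as well, and limma-voom with sample weights called 1, Pparg.

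**Figure D4:**
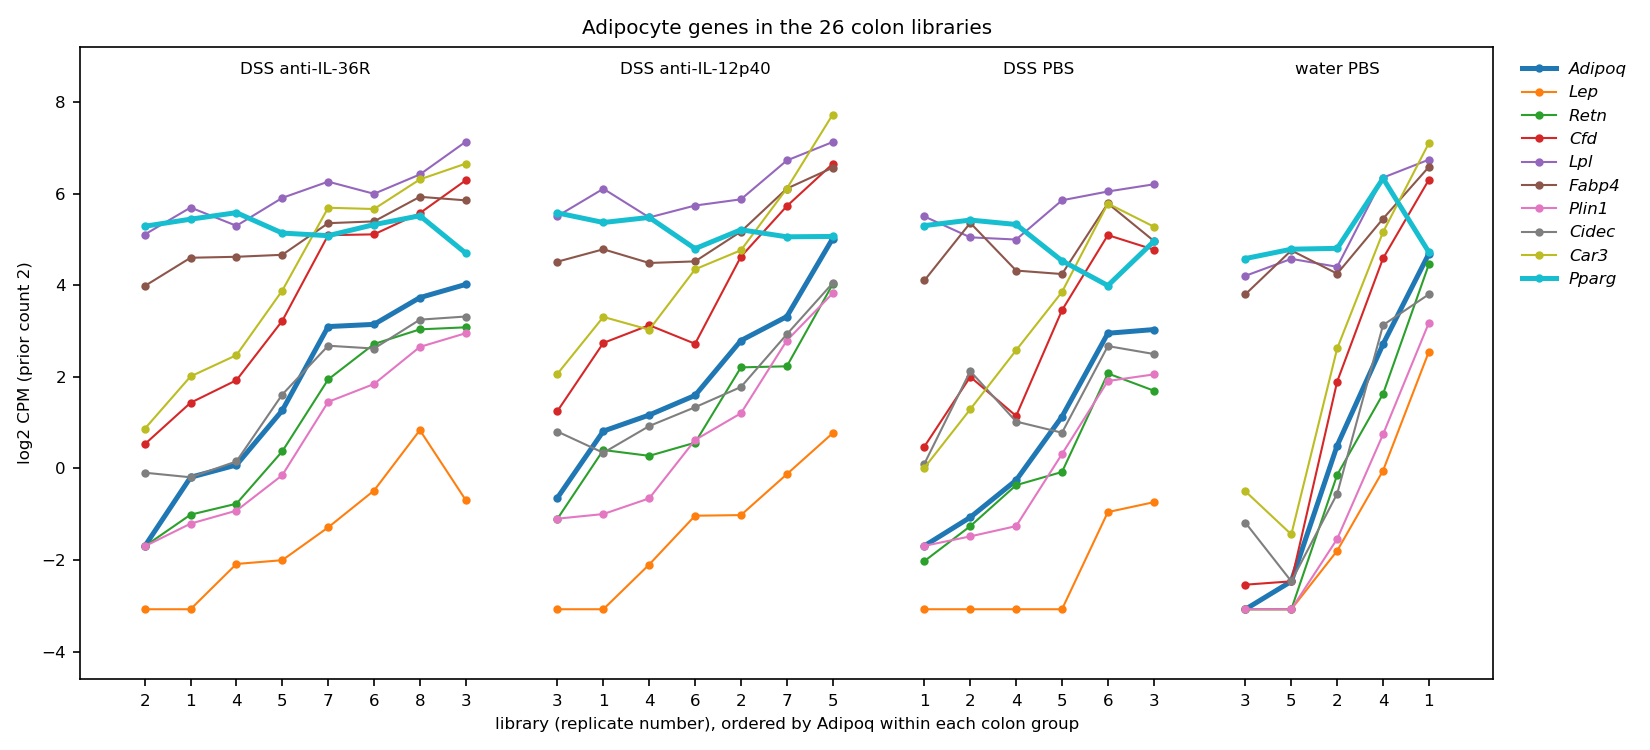
Log2 CPM (prior count 2, vertical axis) of the 10 adipocyte genes in the 26 colon libraries (horizontal axis, replicate numbers), ordered by Adipoq within each group; each line is a gene. The lines of 8 genes go up and down with that of Adipoq (r 0.83 to 0.99 within groups), while that of Pparg does not (r -0.18) and peaks in water replicate 4, at 80.4 CPM.

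Within colon groups the fat genes formed a tight set. After group means were removed, all 36 pairs among the 9 members other than Pparg had a Pearson r above 0.8 over 26 libraries (0.82 to 0.99, median 0.91), while the 9 pairs with Pparg lay between -0.24 and 0.02. Car3 (r 0.99), Retn (0.99), Cfd (0.98) and Plin1 (0.97) were the 4 genes most correlated with Adipoq among all 15730 others tested, and Lep, Cidec, Lpl and Fabp4 ranked 7, 9, 13 and 20. Of all genes, 21 had an r above 0.8 with Adipoq. The relation passed its permutation test for 8 of 9 members (adjusted p of 1.8e-05 each over the 18 relations of both tissues; Spearman rho from 0.77 to 0.98) and it held for all 8 without the 2 libraries farthest from the median, water replicates 1 and 3. Pparg had an r of -0.18 (adjusted p = 0.534; Spearman rho -0.27, adjusted p = 0.228).

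Pparg in colon followed colonocyte markers instead. Its r with the sum of the other colonocyte markers was 0.71 within groups over 26 libraries (permutation p = 9e-05; Spearman rho 0.74, permutation p = 9e-05) and 0.63 without the 2 farthest libraries. This relation and that to sebocyte markers were among 6 examined after the data were seen, and both had an adjusted p of 0.00033. Of the other 4, Fabp4 with endothelial markers and Lpl with macrophage markers passed in skin (r 0.67 and 0.72, adjusted p = 0.00038 and 0.00105) and not in colon (r 0.34 and 0.38, adjusted p = 0.0746 and 0.0719). Without the 2 farthest libraries, r was 0.64 for Fabp4 and 0.53 for Lpl in skin, and 0.19 and 0.33 in colon. Whether these relations differ between tissues was not tested. Colonocyte markers summed to 595 CPM in DSS with PBS replicate 6, the lowest of all colon libraries, which was also lowest for Pparg at 15.8 CPM.

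**Figure D5:**
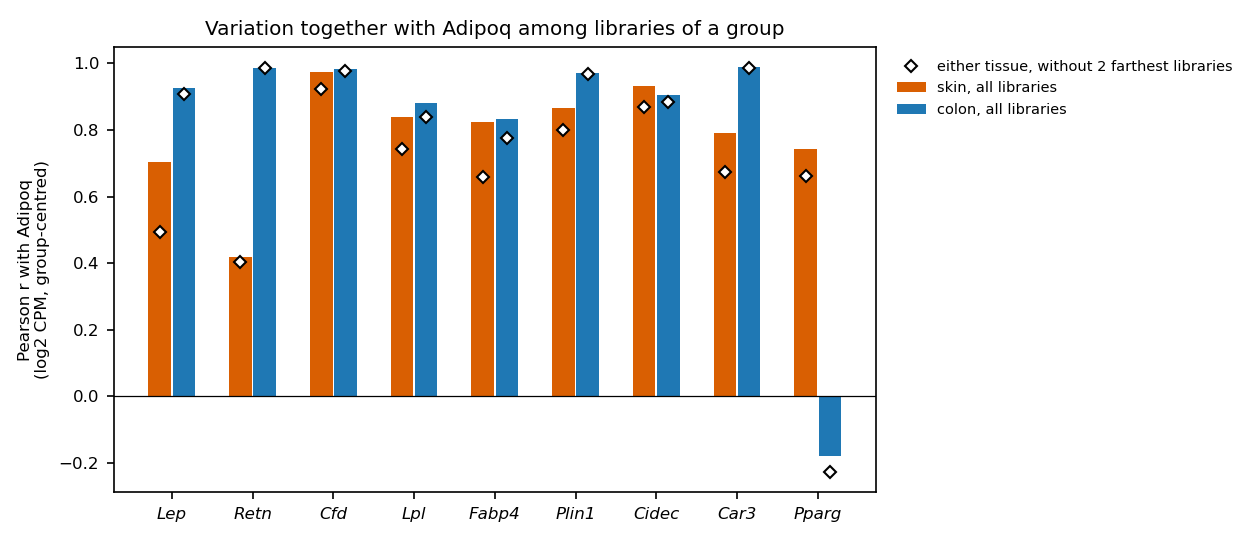
Pearson r with Adipoq (vertical axis) of each other member (horizontal axis), from log2 CPM centred on group means, over 23 skin and 26 colon libraries. Diamonds leave out the 2 libraries of the tissue whose Adipoq, centred on group means, lies farthest from its median. The bars of Retn stand at 0.42 in skin and 0.99 in colon, those of Lep at 0.70 and 0.93, and those of Pparg at 0.74 and -0.18; the differences between tissues were not tested.

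In skin the set was looser. The 45 pairs had an r between 0.21 and 0.97 (median 0.74). Cfd (r 0.97) and Cidec (0.93) were the 2 genes most correlated with Adipoq of 15344, but 182 genes had an r above 0.8 with it. Plin1, Lpl and Fabp4 (r 0.87, 0.84 and 0.82) ranked 35, 68 and 103, and Car3, Pparg, Lep and Retn ranked 231, 481, 711 and 3278. The test was passed by 8 of 9 members; Retn, with an r of 0.42 (adjusted p = 0.146; Spearman rho 0.45), did not pass. The relation of Lep (r 0.70, adjusted p = 0.00316) rested on IMQ with PBS replicates 1 and 3, without which r was 0.49 (adjusted p = 0.0694). Retn and Lep are also the members with the most negative fold changes after IMQ.

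By r with Adipoq within groups, the closest genes outside the 10 in colon were Thrsp (r 0.93), Cyp2e1, Scd1, Abcd2, Pnpla3, Plin4, Lipe, Ntrk2, Trarg1 and Ptger3 (0.74), over 26 libraries; Thrsp and Scd1 serve lipid synthesis, Plin4 coats droplets, and Lipe is hormone-sensitive lipase. In skin they were Apol6 (r 0.93), Trf, Ebf1, Plaat3, Adhfe1, Cdo1, Dennd5a, Abcd2, Slc7a10 and Aoc3 (0.89), over 23 libraries; Ebf1 is a transcription factor of early fat cells. Abcd2, a peroxisomal fatty acid transporter, was in both lists.

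Among other fat cell and lipid genes, more fell than rose in IMQ skin. In 6 lists of fat cell and lipid genes, 114 genes were tested in skin, of which 27 fell and 11 rose with IMQ and PBS over water (median log2 fold change -0.27, against -0.03 over all genes). The share called was 33.3%, against 33.0% of all genes, of which 2381 rose and 2680 fell. With anti-IL-36R over IMQ with PBS, 11 rose and 0 fell (9.65% called), against 505 higher and 141 lower over all genes (4.21%). With anti-IL-12p40, 12 rose and 2 fell (12.3% called), against 816 higher and 535 lower over all genes (8.80%). Most calls were thus upward with either antibody over all genes too. These comparisons share the IMQ libraries with PBS, so a gene low in those libraries tends to be low in the IMQ comparison and high in both antibody comparisons.

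Among droplet and lipolysis genes, 6 of 15 fell with IMQ and 1 rose, a called share of 46.7% against 33.0% of all genes. Mgll, which cleaves monoglycerides, had 158 ± 92.5 CPM with IMQ and PBS and 737 ± 344 CPM with water (SD; log2 fold change -2.22 ± 0.431, adjusted p = 0.000961). Anti-IL-36R libraries had 627 ± 285 CPM of Mgll and anti-IL-12p40 libraries 606 ± 258 CPM, higher than IMQ with PBS by a log2 fold change of 1.99 and 1.94 (adjusted p = 0.00467 and 0.00394). Cidea and Plin2, droplet proteins that sebocytes also make, fell with IMQ by 1.38 and 0.86 on the log2 scale and rose with each antibody; both are on the sebocyte list.

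Of 20 genes of fatty acid and triglyceride synthesis, 6 fell and 1 rose after IMQ, a called share of 35% that is near the 33.0% of all genes. With anti-IL-36R 5 were higher (25% called against 4.21% of all genes), and with anti-IL-12p40 3 (15% against 8.80%). The sebocyte markers given above, of which 10 of 11 fell with IMQ and 9 of 11 rose with each antibody, moved beside these genes; their part in the values was not tested. Scd1, the stearoyl-CoA desaturase, had 784 ± 321 CPM with IMQ and PBS, against 3479 ± 1173 CPM with water (SD, adjusted p = 0.000241). Elovl6, a fatty acid elongase, fell by 2.33 and Acacb, an acetyl-CoA carboxylase, fell by 1.82 on the log2 scale. All 3 rose with either antibody, by 1.47 to 1.69. Scd2 rose with IMQ (log2 fold change 1.05, adjusted p = 0.00252).

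Of 20 uptake genes, 3 rose and 1 fell in IMQ skin: Gpihbp1, the capillary anchor of lipoprotein lipase, rose by 1.40 and Fabp5, the epidermal fatty acid carrier, by 1.24 on the log2 scale, while Irs1, an insulin receptor substrate, fell by 1.30. Of 20 transcription factors, 3 rose and 4 fell, with Cebpd at 1.42 and Ppargc1a at -1.50. Of 19 other hormones and receptors, 2 rose and 5 fell; Serpina12 (vaspin) fell by 2.23 and Nrg4 by 1.88, and both rose with each antibody. Of 20 further fat cell genes, 1 rose and 5 fell, among them Lgals12, a droplet-bound galectin, at -1.03. The shares of these lists called with IMQ were 20%, 35%, 36.8% and 30%, in the order given. Over all genes the share was 33.0%, so these counts were near or below the background.

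In colon the calls in these lists were near the background. Of 112 genes tested, 19 rose and 18 fell with DSS and PBS over water, 33% of the lists against 32.2% of all genes. With anti-IL-36R 1 rose and 8 fell (8.04% of the lists against 6.60% of all genes, of which 182 rose and 857 fell), and with anti-IL-12p40 0 rose and 3 fell (2.68% against 1.15%, of which 3 rose and 178 fell). Hp, haptoglobin, an acute-phase protein that fat cells and neutrophils also make, had 238 ± 188 CPM with DSS and PBS and 0.595 ± 0.564 CPM with water (SD; log2 fold change 8.65, adjusted p = 1.32e-06). It was lower with anti-IL-36R (17.01 ± 13.4 CPM) and with anti-IL-12p40 (29.3 ± 14.8 CPM) than with DSS and PBS. Angptl4, an inhibitor of lipoprotein lipase, rose by 3.33 with DSS (adjusted p = 0.000291), and Cebpb by 2.23. Mlxipl, the carbohydrate-sensing factor, fell by 1.55, Ppargc1a by 1.51 and Retnla, a resistin-like gene that macrophages make, by 3.68. In the same comparison colonocyte markers summed to 595 to 3461 CPM with DSS and PBS, against 3542 to 6954 CPM with water (4 of 11 lower), macrophage markers to 605 to 2138 CPM against 256 to 521 CPM (8 of 12 higher and 1 lower), and fibroblast and fat cell precursor markers to 4749 to 14818 CPM against 2041 to 3294 CPM (11 of 14 higher). The share called was 36.4% for colonocyte, 75% for macrophage and 78.6% for fibroblast and precursor markers, against 32.2% of all genes. Col3a1, Col1a2 and Col1a1 held most of the fibroblast and precursor sum (means of 2349, 892 and 708 CPM over colon libraries). The part of these markers in the values above was not tested.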

How the data were processed

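RNA was measured in 23 skin and 26 colon libraries. Per the labels' protocols, mRNA was purified and strand-specific libraries were made with ScriptSeq. The deposited tables hold expected counts per Entrez gene, estimated by the authors with RSEM on mm10, per the submitters' processing notes; 16.9% of skin and 17.5% of colon values are not whole, and all were rounded. Symbols were matched for 24375 of 24475 genes. Each tissue's 4 groups entered 1 fit (edgeR 4.0.16, filterByExpr, TMM, quasi-likelihood test, Benjamini-Hochberg over all genes: 15345 in skin, 15731 in colon). The code was tested on simulated data. Correlations used log2 CPM (prior count 2) centred on group means, with 100000 shuffles within groups. Replicates are separate samples in the labels, which do not say that each is another animal, so p-values measure the spread between samples. The members, lists and comparisons were chosen with earlier results of these data known. All members were reported; from each pathway list, up to 4 called genes per comparison with the lowest adjusted p; and the 10 genes most correlated with Adipoq (mean log2 CPM of at least 1, no predicted genes). DESeq2 1.42.0, limma-voom 3.58.1, other scaling, no filter, the compared groups alone, each replicate left out and the IMQ controls in 2 parts were alternatives. Lengths for CPM per kb came from GENCODE exons on GRCm38.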

Additional observations from a re-analysis of the deposited data

Results flagged for a closer look

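In 70 groups of 4 to 10 libraries of the 10 genes, 6 held a library far from the rest of its group; chance flags about 1 in 20. Among them, 4 genes were lowest in the same skin library, IMQ with PBS replicate 1: Adipoq at 9.02 CPM (the others 36.7 to 69.9), Car3 at 131.8 CPM (296.9 to 478.7), Cfd at 41.4 CPM (168.0 to 379.4) and Fabp4 at 91.6 CPM (221.5 to 296.0). That library had the lowest TMM factor, 0.833. Cidec reached 68.1 CPM in IMQ with anti-IL-12p40 replicate 6 (the others 33.8 to 42.6). Pparg reached 80.4 CPM in water colon replicate 4 (the others 23.8 to 27.8); without that library, the difference between the IMQ effect in skin and the DSS effect in colon was called for Pparg.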

How the results depend on the processing

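No paired analysis was possible because the labels give every library a different sample number. The count of members called in skin for IMQ with PBS over water was 3; it was 1 with limma-voom, 0 with the compared groups alone, 0 with IMQ replicates 4 to 6 alone, and 0 to 4 with 1 replicate left out (1 without IMQ replicate 1 or 2, 0 without water replicate 1 or 3). From 0, the count went to 1 (Pparg) with limma-voom for anti-IL-36R in skin, with DESeq2, limma-voom or IMQ replicates 1 to 3 alone for anti-IL-12p40 in skin, and with limma-voom for the difference between tissues. Leaving out replicates gave 0 to 1 in these 3 and, for DSS over water in colon, 0 to 1 (Lep, without water replicate 3 or 5 or DSS replicate 3). The cause was not tested, beyond the fewer samples of the smaller fits.

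Reversals concerned values that were not called. For DSS over water, limma-voom gave Adipoq 0.44, Plin1 1.07, Cidec 1.14, Pparg 0.32, Retn 0.30, Car3 0.30 and Cfd 0.89. In skin it gave Adipoq -0.044 with anti-IL-36R, and Fabp4 -0.041 and Cidec -0.0396 with anti-IL-12p40; IMQ replicates 4 to 6 alone gave Cidec -0.079 with anti-IL-36R, and Fabp4 -0.15 and Cidec -0.14 with anti-IL-12p40. With 1 replicate left out, DSS over water ranged for Adipoq from -1.60 to 0.73, Car3 -1.52 to 0.89, Cfd -1.21 to 0.96, Cidec -0.76 to 0.54, Fabp4 -0.63 to 0.24, Lpl -0.19 to 0.51, Plin1 -0.95 to 1.90, Pparg -0.34 to 0.28 and Retn -2.32 to 0.74; anti-IL-12p40 in colon for Cidec from -0.20 to 0.77; IMQ over water for Cidec from -0.51 to 0.052; anti-IL-36R in skin for Adipoq from -0.18 to 0.27, Cfd -0.12 to 0.35, Cidec -0.10 to 0.26, Lep -0.59 to 0.010 and Plin1 -0.069 to 0.40; and anti-IL-12p40 in skin for Adipoq from -0.093 to 0.36, Car3 -0.22 to 0.11, Cfd -0.084 to 0.39, Cidec -0.15 to 0.21, Fabp4 -0.16 to 0.10 and Plin1 -0.029 to 0.44. Limits: 3 water skins set every IMQ effect, and in colon a count of 0 allows 0.159 to 0.212 CPM.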

Other observations

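Of 10 brown and beige fat genes, 8 passed the filter in skin and 5 in colon. In skin 6 fell and 0 rose with IMQ and PBS over water (75% called against 33.0% of all genes). In colon 4 fell and 1 rose with DSS and PBS over water (100% against 32.2%). Over colon libraries Cox7a1, Dio2, Cpt1b, Ppara and Kcnk3 averaged 3.71 to 16.5 CPM. Ucp1, Cox8b, Elovl3, Cidea and Otop1 averaged at most 0.487 CPM there, so the colon counts say little of them. In skin the 10 genes summed to 67.6 to 199.95 CPM with IMQ and PBS and 231 to 446 CPM with water. Most of the skin sum was Elovl3 and Cidea, with means of 200 and 43.9 CPM over skin libraries. Cpt1b came next at 9.65 CPM, so the sum says little of the other genes. With anti-IL-36R 2 genes of the list were higher (25% called against 4.21% of all genes), and with anti-IL-12p40 3 (37.5% against 8.80%). In colon the sums overlapped, at 33.1 to 84.4 CPM with DSS and PBS and 49.3 to 102 CPM with water. Ucp1, the uncoupling protein that defines brown fat, had at most 0.158 CPM in skin and was at 0 in 8 of 23 libraries. In colon it was at 0 in 20 of 26 libraries, with a highest value of 9.93 CPM. Cidea, on this list, is also on the sebocyte list.

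Pancreas acinar markers, absent from most skin libraries, summed to 39.4 to 1324 CPM in colon, highest in DSS with anti-IL-36R replicate 8, which also had 13.1 CPM of Adipoq. Their relation to the fat genes was not tested.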
